A study of Mus musculus with 6 samples.

Results

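The IFI200 genes are a family of interferon-inducible genes that lie side by side on mouse chromosome 1. The members described here are 8 symbols, Ifi203, Ifi204, Ifi205, Ifi207, Ifi209, Mnda, Mndal and Aim2, and 7 of them were found among the 55335 genes of the count table. The symbol Mnda names no gene of the table. RefSeq lists it as a synonym of Ifi211, which is described below as another gene of the cluster and not as a member. The group was selected on the measured counts of Ifi205, which were clearly higher in aged than in young aorta, so the values of Ifi205 in this contrast are a description and carry no test.

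RNA of the aorta was sequenced from 3 young mice of 6 weeks and 3 aged mice of 6 months, with 1 library per mouse. All 6 mice were C57BL/6 (spelled c57b6l in the labels), are labelled WT and carried no transgene or treatment in the labels. The paper gives them as male, and the vessel was taken after the fat around it had been dissected away. The comparison asks which genes differ in the vessel wall with age.

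Many proteins of this family join a pyrin domain, which binds other pyrin domains, to 1 or more HIN domains, which bind DNA. Interferons induce many of the genes, and several of the proteins take part in the sensing of DNA outside or inside the nucleus. Aim2 is the best known: it binds double-stranded DNA in the cytosol and builds an inflammasome with the adaptor Pycard (ASC) and caspase-1. Macrophages and other leukocytes are known for high levels of several members. A whole vessel holds smooth muscle, endothelium, fibroblasts and leukocytes, and in RNA of the whole tissue, fewer cells of a type and less RNA per cell cannot be told apart.

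Total counts lay between 31049632 and 45832185 per library, and all members together had between 335 and 1261 counts in a library. The aorta markers of smooth muscle were abundant in all 6 libraries, with a sum over 9 genes of 29462 to 42383 CPM (counts of a gene relative to the TMM-scaled total of its library). Markers at odds with a label or with the dissection stood out in 2 libraries. Young replicate 1 had 305.6 CPM of Xist, an RNA of female cells, and 1.09 CPM of the Y-linked gene Ddx3y, although the mice are given as male. Aged replicate 2 had 1422 CPM of Ucp1, the uncoupling protein of brown fat, against 45.2 to 361 CPM in the other libraries. Genes of the mitochondrial genome took 21.2%, 16.7% and 14.9% of the counts in young replicates and 23.1%, 26.7% and 30.4% in aged ones, and the TMM factors lay between 1.06 and 1.11 in young and between 0.886 and 0.943 in aged libraries. Both thus separated the groups as Ifi205 did, and their part in the differences was not tested. Fitted values without young replicate 1, aged replicate 2 or both are given below for Ifi211 and most members. The DESeq2 calls, gene lists, order of levels between genes, shares within the cluster and correlations were not recomputed without them. With edgeR's quasi-likelihood test, 0% of the 16612 genes tested passed an adjusted p of 0.05, and 1723 genes had an unadjusted p under 0.05. DESeq2 called 338 of the 14955 genes to which it gave an adjusted p, and its shares of all genes below are of these.

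Ifi205 (ENSMUSG00000054203), which encodes the PYHIN protein p205, lies at chr1:174011998-174031810 on the minus strand of GRCm38 (GENCODE M21) and closes the cluster at its distal end. Values of single libraries are given below in the order of replicates 1, 2 and 3. Its counts were 46, 22 and 21 at 6 weeks and 166, 128 and 127 at 6 months. As CPM these were 0.949, 0.632 and 0.612 at 6 weeks and 4.99, 3.39 and 4.49 at 6 months. All aged libraries were above all young libraries, with the lowest aged value more than 3 CPM and the highest young value under 1 CPM. The mean was 0.731 ± 0.189 CPM (SD, n = 3) at 6 weeks and 4.29 ± 0.820 CPM (SD, n = 3) at 6 months, a ratio of means of 5.87 and a fitted log2 fold change of 2.54 with a standard error of 0.36. Without young replicate 1 and aged replicate 2 together, the log2 fold change was 2.93. Scaled for gene length, the level was low in both groups, at 0.166 ± 0.0421 FPKM (SD, n = 3) at 6 weeks and 0.857 ± 0.160 FPKM (SD, n = 3) at 6 months.

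The start of Ifi205 shares a short stretch with other genes of the cluster, shown here because it holds the letters of the interferon response element core. RefSeq promoters of 300 bases (250 before to 50 after the start, GRCm38.p6) were found for 12 of the 14 genes of the cluster and for 6 of the 7 members, with none for Ifi204 and Ifi203-ps. The motif GAAANNGAA, searched on both strands, was in the promoters of 9 genes of the cluster, 4 of them members (Ifi203, Ifi205, Ifi207 and Mndal). Of all 27025 genes with a promoter, 9.76% held it. The 30 bases around 1 match per gene are given 5′ to 3′ on the gene's strand, with the matching letters in capitals. The match is a description of the letters and not a site shown to be bound.
Ifi205 (chr1:174031866-174031895, minus): gccaggGAAATTGAAagctatgaacaaaac
Ifi211 (chr1:173913060-173913089, minus): gccaggGAAATTGAAagctatgaacgaaac
Ifi207 (chr1:173741827-173741856, minus): gccaggGAAATCGAAaattaagaacaaaac
Mndal (chr1:173880200-173880229, minus): gctgggGAAATCGAAagctatgaacagtgc
Ifi203 (chr1:173942504-173942533, minus): gctgggGAAATCGAAagctatgaacagtgc
Ifi208 (chr1:173673601-173673630, plus): tctgagGAAATCGAAagctatgaaccttgt

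Of its 30 bases, Ifi211 had 29 in common with Ifi205, Ifi207 had 26, Mndal and Ifi203 had 24, and Ifi208 had 20. The windows of Mndal and Ifi203 were the same letters at different places. Those of Ifi206 and Ifi213 were the same as that of Ifi208, and that of Ifi214 had 19 bases in common with Ifi205. The match lay at position -134 from the RefSeq start in Ifi205 and between -35 and -41 in Ifi211, Ifi207, Mndal and Ifi203. Ifi205 held a further match of the same motif on the other strand at position 24, and Mndal one at position -53 from the start of its other promoter. The motif TTCNNNGAA of the gamma-activated element was found in 1 gene of the cluster, Ifi202b, against 9.55% of all genes. The C/EBP motif TTGCNNAA was found in 6 genes of the cluster, among them the members Ifi209 and Mndal, against 12.2% of all genes. The 300 bases of Aim2 held none of the 3 motifs, which says only that these letters are not in this window.

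Ifi207 (ENSMUSG00000073490, chr1:173723427-173741747, minus strand), a further PYHIN gene, had the pattern closest to Ifi205 among the members. It had counts of 70, 63 and 52 at 6 weeks and 275, 166 and 222 at 6 months. The levels were 1.44, 1.81 and 1.52 CPM in young and 8.27, 4.40 and 7.86 CPM in aged aorta. The groups did not overlap, and the young libraries lay close together while aged replicate 2 was the lowest aged library. The mean was 1.59 ± 0.194 CPM (SD, n = 3) at 6 weeks and 6.84 ± 2.13 CPM (SD, n = 3) at 6 months. With a log2 fold change of 2.10 and a standard error of 0.33, Ifi207 did not pass edgeR's test over all genes (adjusted p = 0.259). DESeq2 called it with an adjusted p of 1.2e-05, and so did edgeR without aged replicate 2 (adjusted p = 0.0346), where 110 genes were called. With young replicate 1 left out as well, the adjusted p of Ifi207 was 0.0754 and 0 genes were called.

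Ifi204 (ENSMUSG00000073489, chr1:173747293-173766943, minus strand) encodes p204, a DNA sensor that acts through STING. It had counts of 96, 43 and 20 at 6 weeks and 253, 124 and 170 at 6 months, which were 1.98, 1.24 and 0.583 CPM in young and 7.61, 3.29 and 6.02 CPM in aged aorta. The groups did not overlap, and the young libraries spread more widely for Ifi204 than for Ifi205. The mean was 1.27 ± 0.700 CPM (SD, n = 3) at 6 weeks and 5.64 ± 2.19 CPM (SD, n = 3) at 6 months. Ifi204 had a log2 fold change of 2.14 with a standard error of 0.52 (edgeR, adjusted p = 0.377; DESeq2, adjusted p = 0.0075). Without young replicate 1 and aged replicate 2 the log2 fold change was 2.90, with an edgeR adjusted p of 0.101.

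Ifi211 (ENSMUSG00000026536, chr1:173896345-173913046, minus strand), the gene that RefSeq also calls Ifi205b and Mnda, had counts of 83, 33 and 61 at 6 weeks and 246, 113 and 176 at 6 months. The levels were 1.71, 0.948 and 1.78 CPM in young and 7.40, 2.99 and 6.23 CPM in aged aorta. The groups did not overlap here either. Its log2 fold change was 1.90 with a standard error of 0.44 (edgeR, adjusted p = 0.372; DESeq2, adjusted p = 0.0066). Without young replicate 1 and aged replicate 2, the log2 fold change of Ifi211 was 2.32, with an edgeR adjusted p of 0.126. Aged replicate 2 was the lowest aged library for Ifi205, Ifi207, Ifi204 and Ifi211 alike.

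**Figure D1:**
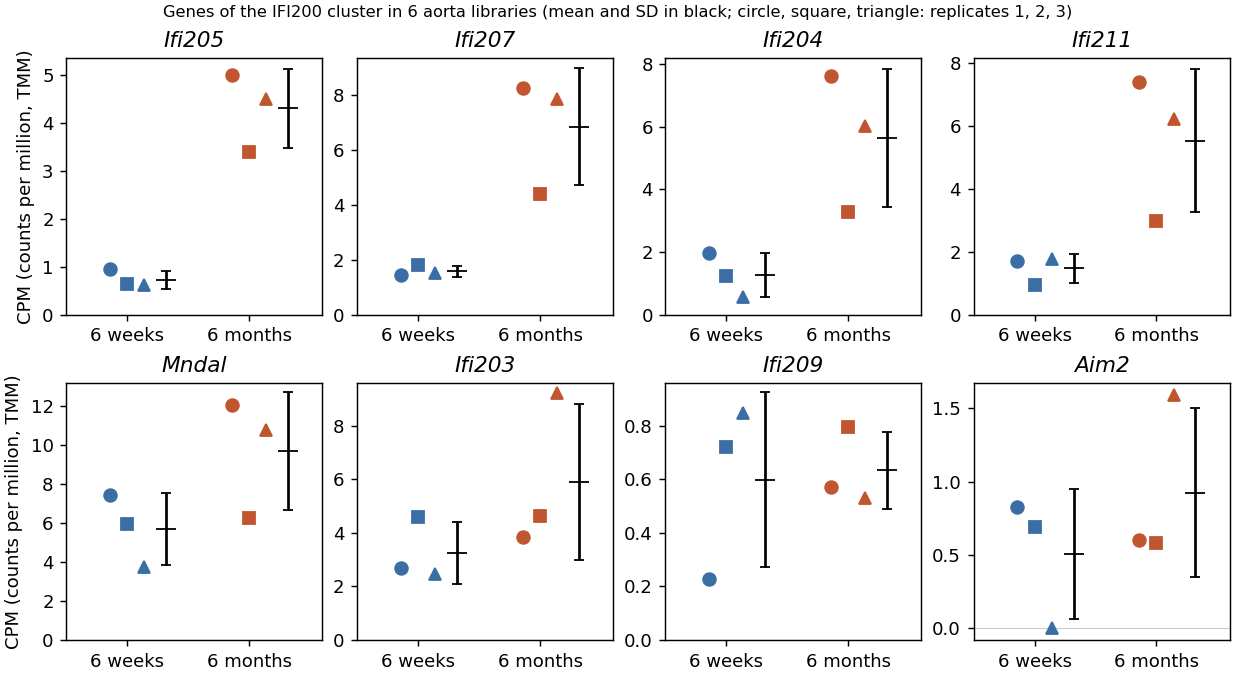
CPM after TMM normalization (vertical axis, linear and different in each panel) of the 7 members and Ifi211 in each of 3 young (6 weeks, blue) and 3 aged (6 months, orange) libraries. Circles, squares and triangles are replicates 1, 2 and 3, and the black bars give the mean and SD. The groups do not overlap for Ifi205, Ifi207, Ifi204 and Ifi211, and overlap for Mndal, Ifi203, Ifi209 and Aim2.

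Mndal (ENSMUSG00000090272, chr1:173849126-173942491, minus strand) had the most counts of the members, from 128 to 400 in a library. It stood at 7.41, 5.95 and 3.73 CPM in young and 12.04, 6.25 and 10.8 CPM in aged aorta, so that aged replicate 2 lay within the young range. A log2 fold change of 0.76 with a standard error of 0.35 did not pass the test (edgeR, adjusted p = 0.508), and it was 1.24 without young replicate 1 and aged replicate 2 (adjusted p = 0.187). In the annotation this gene spans Ifi211 and shares 37 exonic bases with Ifi203 and 118 with a pseudogene on the same strand.

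Ifi203 (ENSMUSG00000039997, chr1:173920407-173942672, minus strand), another PYHIN gene, was at 2.70, 4.60 and 2.48 CPM in young and 3.85, 4.64 and 9.24 CPM in aged aorta. Only aged replicate 3 lay clearly above the young libraries. Its log2 fold change was 0.86 with a standard error of 0.42 (edgeR, adjusted p = 0.533), and 0.38 without aged replicate 3.

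Aim2 (ENSMUSG00000037860, chr1:173350879-173466040, plus strand), the cytosolic DNA receptor of the inflammasome, had counts of 40, 24 and 0 at 6 weeks and 20, 22 and 45 at 6 months. The 0 in young replicate 3 allows a level of up to 0.0874 CPM (3 counts), which covers counting error only. The other libraries were at 0.826 and 0.690 CPM in young and 0.602, 0.583 and 1.59 CPM in aged aorta, so the groups overlapped. The log2 fold change was 0.85 with a standard error of 1.12 (edgeR, adjusted p = 0.805), and a difference of this size was not detectable at these counts. It was 0.22 without aged replicate 3, 0.29 without young replicate 3 and 1.66 without young replicate 1 and aged replicate 2.

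Ifi209 (ENSMUSG00000043263, chr1:173630917-173647928, plus strand) had counts of 11, 25 and 29 at 6 weeks and 19, 30 and 15 at 6 months. At 0.597 ± 0.326 CPM (SD, n = 3) at 6 weeks and 0.633 ± 0.142 CPM (SD, n = 3) at 6 months, the groups lay within each other. The log2 fold change of 0.10 with a standard error of 0.62 (edgeR, adjusted p = 0.966) turned to -0.50 without young replicate 1 and aged replicate 2.

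The remaining genes of the cluster had few counts. Ifi208 had counts of 23, 5 and 0 at 6 weeks and 23, 4 and 15 at 6 months, with a log2 fold change of 1.04 and a standard error of 1.20 (edgeR, adjusted p = 0.775). The pseudogene Ifi203-ps had between 17 and 53 counts in every library and a log2 fold change of -0.12 with a standard error of 0.49 (edgeR, adjusted p = 0.944). Ifi213 had at most 24 counts, and Ifi206 and Ifi214 had 4 and 3 counts in a single aged library each and 0 in the others. Ifi202b had 0 counts in all 6 libraries.

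Over the members as a group, all 7 found passed the filter on low counts and 7 of 7 had a log2 fold change above 0, although Ifi209 turned below 0 under 5 alternatives. Of all tested genes, 52.1% were above 0. By edgeR's adjusted p, 0 of the 6 members other than Ifi205 were called, as were 0% of all genes. By DESeq2, 2 of these 6 were called, Ifi207 and Ifi204, against 2.26% of all genes in either direction and 1.48% of all genes as higher. It gave Ifi209 no adjusted p. Libraries of the groups did not overlap, with aged higher, for the same 2 of the 6, against 7.74% of all genes. The unadjusted p was under 0.05 in the higher direction for these 2 as well, against 5.56% of all genes. The median log2 fold change was 0.86 over the 7 members and 0.02 over all genes tested. The members were chosen around Ifi205, so these counts describe them and are no test of the group.

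**Figure D2:**
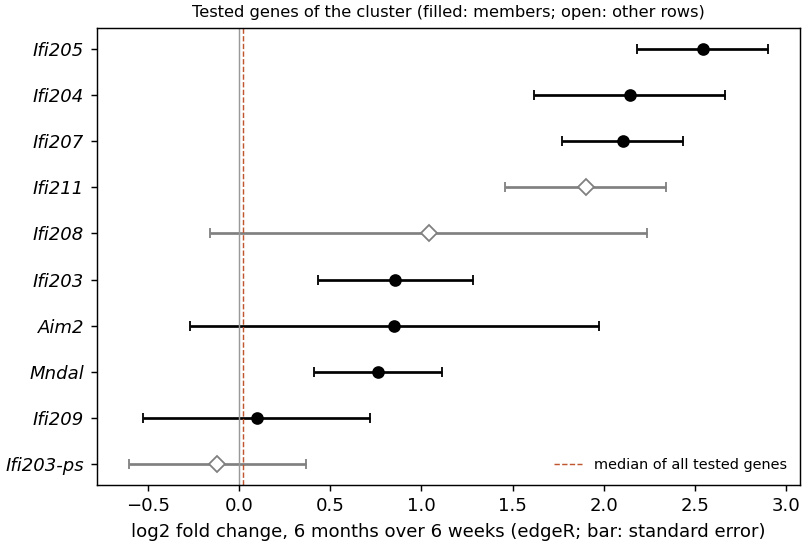
Log2 fold change of aged over young aorta from edgeR (horizontal axis) for the 10 tested genes of the cluster, with bars of 1 standard error. Members are filled and other genes of the cluster open, and the dashed line is the median of all tested genes (0.02). Ifi205, Ifi204, Ifi207 and Ifi211 lie between 1.90 and 2.54, and the bars of Ifi208, Aim2, Ifi209 and Ifi203-ps cross 0.

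Levels of different genes were compared per length, as FPKM. The gene lengths behind the FPKM are not stated in the sources used here, and the order depends on them. Ifi205 has 4177 exonic bases over all its annotated transcripts, more than its coding transcripts hold. Across the members and Ifi211, the ratio of counts to FPKM in a library ran close to the exonic bases over all annotated transcripts. A length from coding transcripts alone would raise the FPKM of Ifi205 and could change its place, but its ratio did not follow such a length. In young aorta the order ran from Mndal (1.53 ± 0.462 FPKM, SD, n = 3) through Ifi211 (0.804 ± 0.253 FPKM), Ifi203 (0.469 ± 0.169 FPKM), Ifi207 (0.450 ± 0.0572 FPKM) and Ifi204 (0.335 ± 0.187 FPKM) to Ifi205 (0.166 ± 0.0421 FPKM), Ifi209 (0.159 ± 0.0915 FPKM) and Aim2 (0.138 ± 0.121 FPKM). By this measure Ifi205 stood among the lowest in young aorta, level with Ifi209 and Aim2 within their spread. In aged aorta Ifi211 (2.59 ± 1.07 FPKM, SD, n = 3) and Mndal (2.24 ± 0.700 FPKM) led the order and did not differ beyond their spread. Ifi207 (1.67 ± 0.507 FPKM) and Ifi204 (1.32 ± 0.520 FPKM) followed, again within their spread. Ifi205 (0.857 ± 0.160 FPKM) stood next to Ifi203 (0.723 ± 0.332 FPKM), and above Aim2 (0.217 ± 0.129 FPKM) and Ifi209 (0.143 ± 0.0384 FPKM) by more than their spread.

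The make-up of the counts over the 14 genes of the cluster is a measure within each library. Ifi205 held 5.03%, 3.46% and 5.08% of them in young and 10.6%, 12.4% and 9.33% in aged aorta. Mndal held less of them in aged aorta, with 34.3% ± 4.38 (SD, n = 3) at 6 weeks and 23.6% ± 1.74 (SD, n = 3) at 6 months. Its mean level did not fall, at 5.70 ± 1.85 CPM (SD, n = 3) at 6 weeks and 9.68 ± 3.04 CPM (SD, n = 3) at 6 months. Ifi207 held 10.05% ± 2.47 (SD, n = 3) at 6 weeks and 16.6% ± 0.817 (SD, n = 3) at 6 months, and Ifi204 held 7.37% ± 2.87 (SD, n = 3) and 13.5% ± 2.28 (SD, n = 3). These shares need no scaling between libraries, and aged replicate 2, the lowest aged library in CPM, had the highest share of Ifi205. A share falls where the other genes rise more, and Ifi205 was chosen for its aged values, so the shares are a description.

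Similar sequence among these genes bears on how far their reads can be told apart. The genes lie within chr1:173350879-174031810, a stretch of 680932 bases with 14 genes, 11 of them on the minus strand. Reads were 50 bases long, so every 50-base window of the coding transcripts was looked up in the other genes of the cluster. Of the 1564 windows of the coding transcripts of Ifi205, 49.5% also occurred in Ifi211 and 16.8% in Mndal, and 49.6% occurred in at least 1 other gene. Over all annotated transcripts of Ifi205, with 4175 windows, the share was 18.6%, with 18.5% in Ifi211 and 6.28% in Mndal. Which transcripts the counting used is not given in the sources used here, though the FPKM followed lengths close to those over all annotated transcripts. Ifi211, with a single annotated transcript, shared 72.8% of its windows, most of them with Ifi205 (44.7%) and Ifi204 (30.1%). Over coding transcripts the share was 34.7% for Ifi209, 30.1% for Mndal (17.7% over all transcripts), 29.9% for Ifi204 (19.2% over all transcripts), 16.5% for Ifi203, 5.39% for Ifi207 and 0% for Aim2. How reads that match several genes were counted is not given in the sources used here, so the values of Ifi205, Ifi211, Ifi204, Mndal and Ifi209 are uncertain as values of single genes. Ifi207, with few shared windows, had the log2 fold change of 2.10 given above. The part of shared reads in the differences of these genes was not tested.

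**Figure D3:**
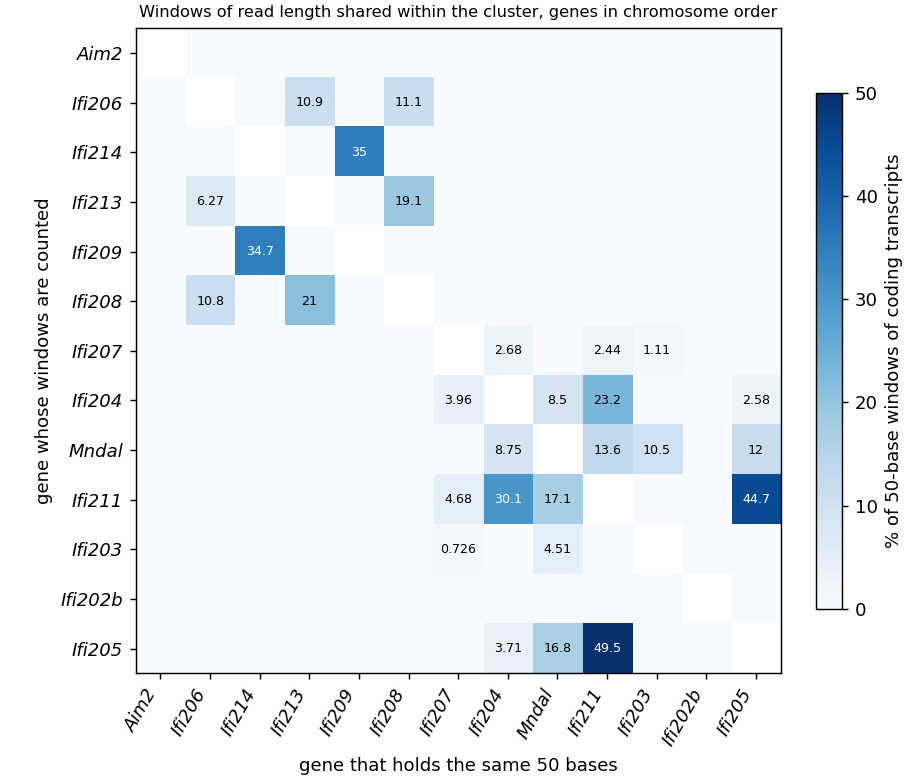
Share of the 50-base windows of each gene's coding transcripts (rows, genes in chromosome order) that occurs letter for letter in another gene of the cluster (columns), in percent. Ifi205 and Ifi211 share the most, 49.5% of the windows of Ifi205 and 44.7% of those of Ifi211, and Aim2 shares none. Over all transcripts of Ifi205, not drawn, the share with Ifi211 is 18.5%.

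A sum over genes does not depend on how reads were split among the genes it holds. It still depends on reads shared with genes outside it, and on whether shared reads were counted at all. Ifi205 and Ifi211 together were at 2.66, 1.58 and 2.39 CPM in young and 12.4, 6.39 and 10.7 CPM in aged aorta. The 7 members together were at 15.5, 15.6 and 9.76 CPM in young and 37.9, 23.4 and 40.5 CPM in aged aorta. This sum leaves out Ifi211, which shares windows with Ifi205, Ifi204 and Mndal. All 14 genes of the cluster together were at 18.9, 18.3 and 12.0 CPM in young and 47.1, 27.5 and 48.2 CPM in aged aorta. The aged libraries were above the young ones in each of these sums. Summed, the members had a log2 fold change of 1.31, and without Ifi205 the members summed to 12.9 ± 3.27 CPM (SD, n = 3) at 6 weeks and 29.6 ± 8.52 CPM (SD, n = 3) at 6 months.

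Across the 6 libraries, the log2 CPM of Ifi205 was compared with that of 14084 genes whose mean reached 1 CPM. These correlations are descriptions over 6 libraries that fall into 2 age groups, so each takes in the difference between the groups. The 10 most alike genes were Eif4h (r = 0.998), a translation initiation factor, Rbp7 (r = 0.994), a retinol-binding protein, Fam19a5, Prrt1, Dfna5, which encodes the pore-forming gasdermin E, Itgam (r = 0.987), the CD11b integrin chain of myeloid cells, Ppp4r2, Trnp1, Gadd45gip1 and Ptbp1 (r = 0.982). Since Ifi205 was chosen for its higher aged values, genes this much like it had to differ between the groups. Of the cluster, Ifi207 came at rank 27 (r = 0.965), Ifi204 at rank 69 (r = 0.944) and Ifi211 at rank 117 (r = 0.931). Mndal (r = 0.796) and Ifi203 (r = 0.617) were less alike, and Ifi209 (r = 0.019) and Ifi203-ps (r = 0.030) showed nearly no relation.

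Itgam is a leukocyte gene whose symbol stands for 2 genes of the table. The one among the 10 (ENSMUSG00000030786), which was picked for its likeness to Ifi205, was at 1.05, 0.402 and 0.350 CPM in young and 5.06, 3.76 and 4.39 CPM in aged aorta. Fitted, its log2 fold change was 2.85 with a standard error of 0.50 (edgeR, adjusted p = 0.306). The other gene (ENSMUSG00000108596) was at 0.413, 0.690 and 0.991 CPM in young and 3.28, 0 and 3.57 CPM in aged aorta. Its groups overlapped, with 0 counts in aged replicate 2 (edgeR, adjusted p = 0.661).

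Genes of inflammasomes were read as a list, which holds the adaptor and caspase that Aim2 uses beside sensors of other inflammasomes such as Nlrc4 and Naip5. Of 10 tested genes of this list, 9 had a log2 fold change above 0 (52.1% of all genes) and 2 had an unadjusted p under 0.05 as higher (5.56% of all genes), while 0 passed edgeR's adjusted p (0% of all genes) and DESeq2 called 0 (1.48% of all genes as higher). DESeq2 gave Il1b, Nlrc4 and Naip5 no adjusted p. The median log2 fold change of the list was 0.70. Il1b, the cytokine that caspase-1 matures, was at 0.154 ± 0.145 CPM (SD, n = 3) at 6 weeks and 0.762 ± 0.566 CPM (SD, n = 3) at 6 months, without overlap. Gsdmd, which forms the membrane pore, was at 7.26 ± 0.693 CPM (SD, n = 3) and 14.7 ± 7.05 CPM (SD, n = 3), with aged replicate 2 inside the young range. The adaptor Pycard had a log2 fold change of 0.59 with a standard error of 0.48 (edgeR, adjusted p = 0.682), and Casp1 one of 0.63 with a standard error of 0.43 (edgeR, adjusted p = 0.632). These last 2 genes were named for their role after their values were seen.

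Other sensors of nucleic acid in the cytosol were tested as a list of 17 genes. Of these, 12 were above 0 (52.1% of all genes) and 5 below, with a median log2 fold change of 0.22. With an unadjusted p under 0.05 as higher there was 1 gene, against 5.56% of all genes, a share near that of the list. It was Dhx58, an RNA sensor related to RIG-I, at 1.46 ± 0.490 CPM (SD, n = 3) at 6 weeks and 3.03 ± 0.223 CPM (SD, n = 3) at 6 months (edgeR, adjusted p = 0.422). Tmem173, which encodes STING, the partner of p204, had a log2 fold change of 0.65 with a standard error of 0.36 (edgeR, adjusted p = 0.566). Mb21d1, which encodes the DNA sensor cGAS, had one of 1.03 with a standard error of 1.11 (edgeR, adjusted p = 0.759). Both were named for their role after their values were seen.

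The receptors and signal carriers of interferon had values in both directions. Of 15 tested genes, 9 were above 0 (52.1% of all genes) and 6 below, with a median log2 fold change of 0.16. Ifnar2, a chain of the type I interferon receptor, had a log2 fold change of 0.55 with a standard error of 0.17, while the other chain, Ifnar1, had one of -0.43 with a standard error of 0.14. The adjusted p of edgeR was 0.390 for Ifnar2 and 0.411 for Ifnar1.

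Interferon-stimulated genes outside the cluster formed a list of 55 tested genes. Of these, 53 were above 0 (52.1% of all genes), 9 had an unadjusted p under 0.05 as higher (5.56% of all genes) and 4 did not overlap (7.74% of all genes, a share near that of the list), and the median log2 fold change was 0.49. No gene of the list passed the adjusted p of edgeR, and DESeq2 called 0 of those to which it gave an adjusted p. Slfn5 was at 20.8 ± 2.70 CPM (SD, n = 3) at 6 weeks and 43.0 ± 16.2 CPM (SD, n = 3) at 6 months. Ifitm3, which hinders the entry of viruses, was at 76.9 ± 8.19 CPM (SD, n = 3) and 163 ± 88.1 CPM (SD, n = 3), with aged replicate 2 inside the young range. Summed over the list, levels were 898, 759 and 675 CPM in young and 1392, 741 and 1200 CPM in aged aorta. The sum in aged replicate 2 lay within the young range.

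Markers of macrophages and fibroblasts were higher in the same libraries as Ifi205, apart from the fibroblast markers in aged replicate 2. Of the 19 tested genes with macrophage marker symbols, where Itgam stands for 2 genes, 18 were above 0 (52.1% of all genes), 14 had an unadjusted p under 0.05 as higher (5.56% of all genes), 6 did not overlap (7.74% of all genes) and DESeq2 called 7 (1.48% of all genes as higher). Their median log2 fold change was 1.38. Their sum was 272, 255 and 276 CPM in young and 700, 362 and 525 CPM in aged aorta. Mrc1, the mannose receptor, was at 10.4 ± 0.909 CPM (SD, n = 3) at 6 weeks and 27.2 ± 7.75 CPM (SD, n = 3) at 6 months. Mertk, a receptor for the uptake of dead cells, was at 99.2 ± 29.5 CPM (SD, n = 3) and 101 ± 50.4 CPM (SD, n = 3). No macrophage marker was at 0 in every library. Their part in the difference of Ifi205 was not tested.

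Relative to the mean of the young libraries, Ifi205 was higher by 2.77, 2.21 and 2.62 on the log2 scale in aged aorta. The summed macrophage markers were higher by 1.39, 0.44 and 0.97. The summed interferon-stimulated genes differed by 0.84, -0.07 and 0.63. Ifi205 was chosen for its aged values, so its distance from the lists is a description and no finding.

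**Figure D4:**
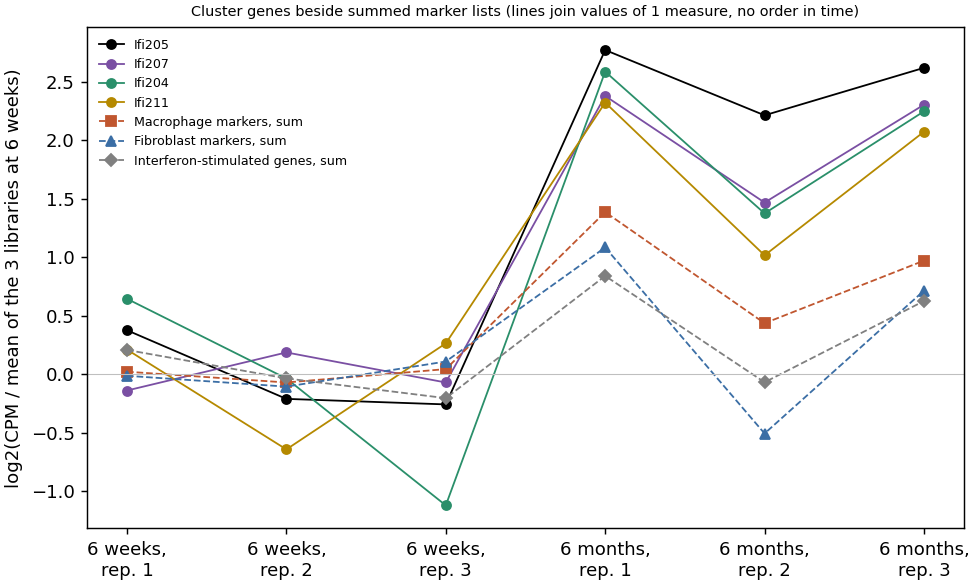
Log2 of CPM over the mean of the 3 young libraries (vertical axis) in each library (horizontal axis) for Ifi205, Ifi207, Ifi204 and Ifi211 and for the sums of 3 gene lists. In aged replicate 2, Ifi205 stands at 2.21, the macrophage sum at 0.44, the interferon-stimulated sum at -0.07 and the fibroblast sum at -0.51; lines only join the values of one measure.

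Fibroblast markers had a median log2 fold change of 1.45 over 15 tested genes, with 13 above 0 (52.1% of all genes), 9 with an unadjusted p under 0.05 as higher (5.56% of all genes) and 3 without overlap (7.74% of all genes), and DESeq2 called 5 (1.48% of all genes as higher). Their sum was 6956, 6524 and 7570 CPM in young and 14876, 4942 and 11518 CPM in aged aorta, so aged replicate 2 was the lowest of all 6 libraries. The 6 tested markers of monocytes and neutrophils were all above 0 (52.1% of all genes), with a median of 1.42. Of them, 2 had an unadjusted p under 0.05 as higher (5.56% of all genes), Csf3r and Ly6c2. Their sum lay between 3.12 and 5.98 CPM in young and between 5.67 and 16.7 CPM in aged aorta. All 10 endothelial markers were above 0 (52.1% of all genes), with a median of 0.71. Emcn was the 1 with an unadjusted p under 0.05 as higher (5.56% of all genes). The sum of the endothelial markers was 505 to 612 CPM in young and 525, 446 and 1911 CPM in aged aorta. Only aged replicate 3 lay above the young range.

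Markers of other cell types had medians nearer to that of all genes, of which 52.1% were above 0. All 9 smooth muscle markers were below 0, with a median of -0.19, 3 with an unadjusted p under 0.05 as lower and 2 without overlap, against 4.82% and 8.78% of all genes. Dendritic cell markers were above 0 in 3 of 6 tested genes, with a median of -0.14 and sums of 17.6 to 22.3 CPM in young and 19.3 to 29.7 CPM in aged aorta. Lymphocyte markers were above 0 in 4 of 8 tested genes, with a median of -0.04 and sums of 14.1 to 44.9 CPM and 24.2 to 33.2 CPM. Adipocyte markers were above 0 in 7 of 10 genes, with a median of 0.41 and sums of 536 to 2074 CPM and 818 to 4123 CPM, the highest in aged replicate 2. The part of these cell types in the differences of the cluster was not tested.

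**Figure D5:**
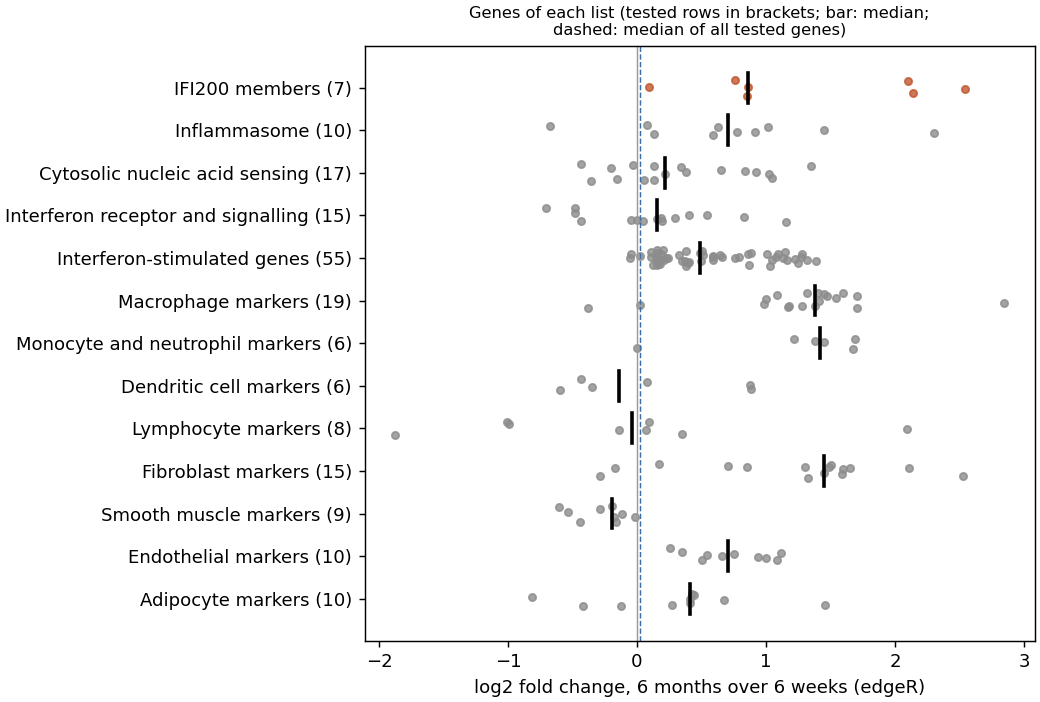
Log2 fold change of aged over young aorta from edgeR (horizontal axis) for every tested gene of each list (vertical axis, number of tested genes in brackets), with the median of each list as a black bar and the median of all tested genes dashed (0.02). The 7 members (orange) have a median of 0.86, the macrophage and fibroblast markers medians of 1.38 and 1.45, and the smooth muscle markers one of -0.19.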

How the data were processed

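The authors deposited a count of reads per gene and, in a second table, FPKM (counts per gene length and library total) for 6 mouse aorta libraries, sequenced single-ended over 50 cycles. The submitters' processing notes name the build mm10, and the aligner, counter and annotation are not given in the sources used here. Counts were filtered (filterByExpr, minimum count of 10, minimum total of 15), normalized by TMM and fitted with edgeR 4.0.16 (R 4.3.3) by quasi-likelihood without covariates, with Benjamini-Hochberg adjustment over all 16612 genes. CPM use TMM-scaled totals. FPKM was used for levels between genes.

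The members and lists were chosen with earlier results of these data known. Named are all members, the other cluster genes with counts, genes of each list with the 3 smallest p or the 3 highest mean FPKM, and the 10 genes most like Ifi205. Positions come from GENCODE M21 (GRCm38), promoters from RefSeq GRCm38.p6. The fit was tested on simulated data. Alternatives were RLE factors, no filter (at least 1 count), at least 10 counts in every library, DESeq2 1.42.0, limma 3.58.1 (pseudocounts of 1 and 0.1 added to FPKM before log2), a replicate block and each library left out. Leaving out young replicate 1 and aged replicate 2 together was chosen after seeing the data. The labels give no batch. Each library is a mouse by the design, and the labels give no pairing of mice by replicate number.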

Additional observations from a re-analysis of the deposited data

How the results depend on the processing

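DESeq2 called 338 genes and 2 members other than Ifi205, against 0 of each with edgeR. Leaving out 1 library gave 0 to 110 genes and 0 to 1 members, both highest without aged replicate 2. The log2 fold change of Ifi205 was 0.67 and 1.84 in limma on log2(FPKM + 1) and log2(FPKM + 0.1), where a pseudocount compresses low genes, 2.93 without young replicate 1 and aged replicate 2 (an alternative chosen after seeing the data), and 2.42 to 2.79 with 1 library left out. Limma also moved the median of all genes to -0.12 and -0.19. Ifi209 reversed to -0.017 and -0.027 in these limma fits and to -0.50 without both libraries, and ranged from -0.29 to 0.44 with 1 library left out; the cause was not tested. The other members and the sum of the members, from 0.93 to 1.63, kept their direction under every alternative that could be run. Aim2 had no value with at least 10 counts in every library.

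With the replicate number as a block, Ifi205 had a log2 fold change of 2.56 and the summed members 1.30, with 0 genes and 0 members called. The labels give no pairing by these numbers. Deviations of same-numbered libraries correlated at 0.079, 0.117 and 0.0957, and those of differently numbered ones at -0.1335 to 0.0549. All values were low, but the same-numbered pairs were the highest, and whether the numbers mark something shared was not tested. Fewer genes had 4 counts than 5 in all 6 libraries (506 against 647 in young replicate 1), so low counts may not be plain tallies of reads, and counting limits are approximate.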
